A study of Rattus norvegicus with 35 samples.

Results

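The genes described here are 10 that encode proteins of neutrophils and of the marrow cells that give rise to neutrophils: Mpo, Ela2, Prtn3, Np4, Camp, Ngp, Lcn2, Ltf, S100a8 and S100a9. They were taken from the array by name: a probe was included when its gene name, or the bracketed symbol in its description, was one of the 10 symbols. This gave 14 probes for the 10 genes, out of 35561 gene names on an array of 43379 non-control spots. The Mpo probe carries the array name Mpo_mapped, a provisional suffix of the same kind as the _predicted of Ela2, Prtn3, Ltf and Ngp, and was taken as Mpo. The RNA came from whole olfactory epithelium, the sensory lining of the nasal cavity, of 27 Brown Norway rats, hybridised to 35 arrays with 1 dye.

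The newborn group held 19 pups of 3 to 5 days, sex not given, from 4 litters (L1 with 4 pups, L2, L3 and L4 with 5 each) that were bought with their mothers, and each pup gave RNA from 1 side of the nose. The adult group was 4 males of 9 weeks and the old group 4 males of 22 months, housed at the institute since they were 3 weeks old. Each adult and old rat gave 2 arrays, for nostrils A and B, which were averaged. All rats were untreated animals of the same inbred strain, and sex, supply and housing moved with age. The level of a gene is given as log2 of its intensity over the median intensity of its array, so that 0 is the level of the median probe, and each fold or log2 difference refers to that scale. Levels of different genes come from different probes and are not set against each other.

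Neutrophils are built in the bone marrow in stages, and their granules are filled in the order in which their proteins are made. Promyelocytes transcribe the genes of the azurophil (primary) granules, among them myeloperoxidase, the serine proteases elastase and proteinase 3, and defensins. Myelocytes and metamyelocytes then transcribe the genes of the specific (secondary) granules, such as cathelicidin, neutrophilic granule protein, lipocalin 2 and lactotransferrin. The S100A8 and S100A9 proteins, which pair to form calprotectin in the cytosol, remain abundant in the mature cell that leaves the marrow. Transcripts of the early granule genes are therefore found mainly in marrow precursors, while S100a8 and S100a9 transcripts are also found in circulating and recruited neutrophils. Lcn2 is also made by epithelia and glands, S100a8 and S100a9 also by stratified epithelia. In whole tissue, fewer cells of a type and less RNA per cell cannot be told apart.

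The probes are 60-base oligonucleotides. Those of the genes on which the results turn are printed 5′ to 3′ in lower case. The sequences were not aligned here, and each probe was assigned by its name on the array. The name Ela2 covers 2 different genes. The probe named Ela2_predicted was taken as the neutrophil elastase and represents Ela2 here, whereas the probe named plain Ela2 belongs to a transcript that RefSeq calls Cela2a, a pancreatic elastase.
S100a8 probe: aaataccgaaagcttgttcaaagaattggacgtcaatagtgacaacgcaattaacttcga
S100a9 probe: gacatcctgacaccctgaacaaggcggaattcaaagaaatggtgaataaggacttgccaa
Mpo probe: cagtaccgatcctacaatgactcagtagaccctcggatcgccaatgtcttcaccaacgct
Ela2_predicted probe, neutrophil elastase: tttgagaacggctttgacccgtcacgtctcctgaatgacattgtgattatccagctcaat
Ela2 probe, pancreatic elastase: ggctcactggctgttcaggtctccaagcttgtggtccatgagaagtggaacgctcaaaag
Prtn3 probe: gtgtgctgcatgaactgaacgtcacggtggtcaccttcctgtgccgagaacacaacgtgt
Camp probe: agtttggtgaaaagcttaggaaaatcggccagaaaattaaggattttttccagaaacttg
Ngp probe: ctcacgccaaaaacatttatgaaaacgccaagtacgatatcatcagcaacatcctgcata

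In the rn3 build given in the scanner files, the S100a8 probe lies at chr2:182912434-182912493 on the plus strand and the S100a9 probe at chr2:182937753-182937812 on the minus strand, 25260 bases apart. The neutrophil elastase probe at chr7:11330273-11330751, whose 60 bases span 479 bases of genome, and the Prtn3 probe at chr7:11336055-11336114 are neighbours on the minus strand, 5304 bases apart. The Camp probe is at chr8:114234442-114234501 (minus), the Ngp probe at chr8:114817743-114817802 (plus) and the Ltf probe at chr8:115457937-115457996 (plus). The Mpo probe is at chr10:76108429-76108488 (plus), the Lcn2 probe at chr3:11407964-11408023 (minus), the pancreatic elastase probe at chr5:160739836-160739895 (minus), and the files give no position for Np4. S100a8 has 2 further probes and Camp has 1, all designed from expressed sequence tags and lying on the strand opposite to the gene's main probe.

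The arrays came from 10 slides scanned on 5 days. All adult arrays were scanned on 2 days of their own and with their own version of the scanner software, the 4 L1 pups and all old rats shared a day, and the pups of L2 to L4 were scanned on the other 2 days. Age and scan day therefore cannot be told apart for the adult group. Median intensity was 81.6 to 162 on adult arrays, 42.1 to 87.7 on newborn arrays and 37.1 to 55.3 on old arrays, and 24484 to 28361 probes per array were above background. Markers of the labelled tissue were present: the 11 measured genes of a list for mature olfactory sensory neurons had a mean level of 3.09 to 4.04 in pups, 5.33 to 5.73 in adult rats and 5.71 to 6.10 in old rats. Precision is limited by the number of rats in a group.

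Detection already separated the genes. S100a8, S100a9, Lcn2, Np4 and Prtn3 were above background on all 35 arrays. Mpo was above background on 18 of 19 newborn arrays, 2 of 8 adult arrays and 0 of 8 old arrays, and Ngp on 18, 2 and 0. Camp was above background on 19 of 19 newborn, 8 of 8 adult and 1 of 8 old arrays. Neutrophil elastase was dim throughout, above background on 10 of 19 newborn, 0 of 8 adult and 4 of 8 old arrays. Ltf, the iron-binding protein lactotransferrin of secondary granules, was above background on no array, so no difference is given for it. A pup's array showed 6 to 9 of the 10 genes above background, an adult array 6 to 8 and an old array 5 to 7. No array was saturated at any of the 14 probes.

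**Figure D1:**
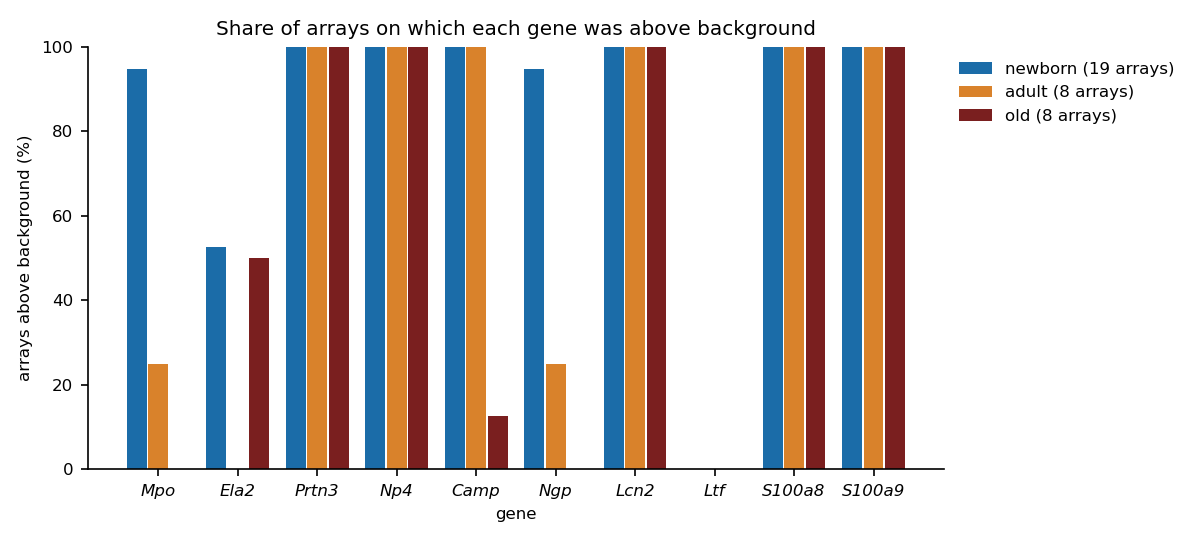
Share of arrays (percent, y axis) on which each of the 10 genes (x axis) was above background, for the 19 newborn, 8 adult and 8 old arrays. Mpo and Ngp were detected on 18 newborn arrays and no old array, Camp on 8 adult arrays but 1 old array, and Ltf on none.

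Newborn pups were compared with adult rats to ask how the tissue differs between the days after birth and young adulthood. Of the 10 genes, 8 were higher in newborns (limma, adjusted p under 0.01), 0 were lower, and Camp and Ltf did not pass. Over all 40991 probes tested, 27 percent were higher in newborns and 19.9 percent lower. The median difference of the 10 genes was 2.16 on the log2 scale against 0.10 over all probes. The genes were chosen with earlier results of these data known, so such counts and medians are no test of the set. Newborn and old rats differed at fewer of the genes: 5 of 10 were higher in newborns (Mpo, Prtn3, Camp, Ngp and S100a8) and 0 lower, where 20.6 percent of all probes tested were higher in newborns and 22.8 percent lower. The median difference was 1.25 for the 10 genes and -0.04 for all probes. Between adult and old rats, Camp was higher in adults and Ela2 and Lcn2 were lower, and the other 7 did not pass. There 11.8 percent of 40991 probes were higher in adults and 20.6 percent lower, and the median difference was -0.60 for the 10 genes and -0.13 for all probes. These 3 comparisons share their groups. The choice of scale moved the centre of the data: for the 23668 probes expressed in all groups the median difference was 0.15 for newborn minus adult, -0.03 for newborn minus old and -0.18 for adult minus old, against -0.03, -0.05 and -0.02 after quantile normalization. These medians were smaller in size than every called difference of a member, so no called difference could change sign relative to them.

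**Figure D2:**
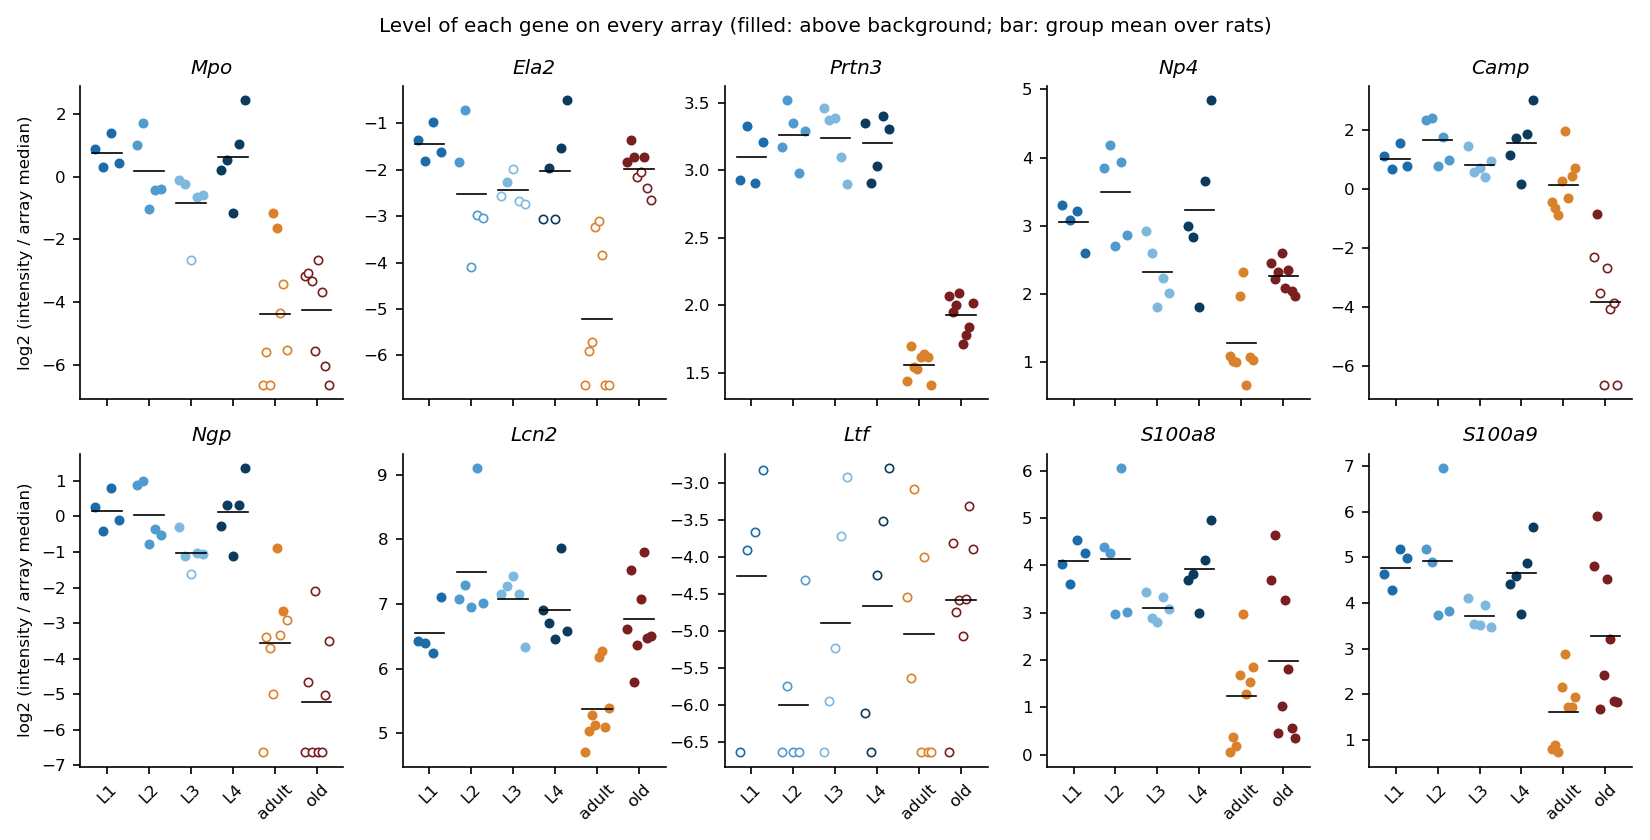
Level of each gene on every array (y axis, log2 of intensity over the array median) in the 4 litters, the adult and the old group (x axis). Filled points were above background, open points were not, and bars are group means over rats. Mpo and Ngp were open points on most adult and all old arrays, Prtn3 formed tight separate bands, and S100a8 and S100a9 spread widely in old rats.

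Among the azurophil granule genes, Mpo, which makes hypochlorous acid from hydrogen peroxide, had levels from -2.65 to 2.44 in the 19 pups with a median of 0.23. The 4 adult rats had -6.12, -3.91, -2.99 and -4.48, and the 4 old rats -3.11, -4.44, -3.16 and -6.34. Every pup stood above every adult and old rat, and adult and old rats overlapped. The newborn mean over 4 litters was 0.18 ± 0.72 (SD, n = 4) and exceeded the adult mean, which rests on 2 of 8 arrays above background, by a fitted 4.56 ± 0.62 (SE; limma adjusted p = 1e-06). Against old rats, in which no array was well above background, Mpo was at least 5.07-fold higher in newborns (limma adjusted p = 1.84e-06). Such a bound is given where a whole group lacked an array with the probe well above background and most arrays of the other group had it. It sets the bright group's mean against the dimmest signal that was well above background on each array of the dim group. In the 2 adult arrays with signal the levels were -1.17 (rat 14, nostril B) and -1.63 (rat 15, nostril A), while the other nostril of the same rats was below background. How large the difference of this dim gene was depended on the scale. Under the alternatives tried, newborn minus adult Mpo ran from 0.88, after a background correction that adds an offset to every signal, to 6.28. Newborn minus old Mpo ran from 0.97 to 5.12, so the bound belongs to the scale used here. Mpo passed in each alternative in both comparisons.

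Prtn3, encoding proteinase 3, behaved differently from Mpo. Its level was 2.90 to 3.52 in pups (median 3.29). It was 1.57, 1.54, 1.63 and 1.52 in adult rats and 2.01, 2.05, 1.74 and 1.93 in old rats. The groups did not overlap, and the spread inside each was the smallest of the 10 genes, with SDs over rats of 0.05 in adult and 0.14 in old rats and a pooled SD of 0.22 among pups of a litter. The newborn mean was 3.11-fold above adult (1.64 ± 0.10 on the log2 scale, SE; limma adjusted p = 2.72e-12) and 2.41-fold above old (1.27 ± 0.10, SE; limma adjusted p = 3.76e-10). The adult minus old difference was -0.37 ± 0.13 (SE) and did not pass (limma adjusted p = 0.0283). It did pass with every array as a sample and the rat as a random block (0.00541), with litter means as newborn replicates (0.00229), with only the groups compared in the limma fit (0.00561) and by the methods' t-test after adjustment (0.00625). Relative to the median of the probes expressed in all groups the difference was -0.19. Prtn3 stayed above background on all 16 adult and old arrays, unlike Mpo.

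Neutrophil elastase, Ela2, gave levels of -4.09 to -0.50 in pups (median -1.98). Adult rats had -6.28, -4.47, -3.47 and -6.64, the last at the floor of the scale, and old rats -1.59, -1.93, -1.89 and -2.53. The adult rats lay below all old rats and below all but 1 of the pups, and pups and old rats overlapped. No adult array was well above background, and only 10 of 19 newborn and 4 of 8 old arrays were above it. The fit called Ela2 higher in newborns (limma adjusted p = 1.41e-05) and in old rats (limma adjusted p = 0.000324) than in adults. The bound for newborns over adults was 1.19-fold on the scale used here. For old rats over adults no bound is given, with 4 of 8 old arrays above background. Over the alternatives newborn minus adult ran from 0.3 to 4.9 and adult minus old from -5.02 to -0.26. The newborn and old means differed by -0.12 ± 0.51 (SE). The pancreatic elastase probe, above background on 2 of 19 newborn, 0 of 8 adult and 1 of 8 old arrays, gave the same 2 calls: its newborn mean was 2.48 ± 0.65 (SE) above adult (limma adjusted p = 0.00214) and its adult minus old difference was -3.07 (limma adjusted p = 0.00439). The adult arrays had higher median intensities than the old arrays, each level is divided by that median, and the part of that scale in the low adult values of dim probes was not tested. With levels floored at 0.1 of the array median in place of 0.01, neither Ela2 call passed (limma adjusted p = 0.0106 and 0.0398).

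The 5 other measured genes of the azurophil list held 2 that were higher in newborns than adults, Bpi, encoding a bactericidal protein that binds endotoxin (1.17 ± 0.28, SE), and Lyz, lysozyme (0.91 ± 0.26, SE). Ctsc, encoding the cathepsin that activates the granule proteases, was lower (-0.50). Among all probes 27 percent were higher in newborns than adults and 19.9 percent lower. Against old rats Ctsg, cathepsin G, was higher in newborns by a fitted 3.92 ± 0.66 (SE; limma adjusted p = 2.09e-05) and Ctsc and Srgn, the granule proteoglycan serglycin, were lower. Ctsg was above background on 18 of 19 newborn, 5 of 8 adult and 1 of 8 old arrays. Its detection thus fell off with age as that of Mpo and Ngp did, whereas Bpi and Lyz were detected on every array.

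Np4, a neutrophil alpha-defensin, had levels of 1.81 to 4.84 in pups with a median of 2.93. Adult rats had 1.05, 1.49, 1.5 and 1.06 and old rats 2.34, 2.47, 2.22 and 2.01. All pups and all old rats stood above all adult rats, and pups overlapped old rats. Newborns exceeded adults 3.36-fold (1.75 ± 0.33, SE; limma adjusted p = 7.78e-05), and neither newborn against old (0.77 ± 0.33, SE; limma adjusted p = 0.0554) nor adult against old (-0.98 ± 0.43, SE; limma adjusted p = 0.0669) passed. Adult against old did pass with litter means as newborn replicates (limma adjusted p = 0.00451) and with only the groups compared in the limma fit (0.00166). It also passed by the methods' t-test after adjustment (0.00314), and in the other 39 alternatives it did not. Of 4 other alpha-defensin probes, 2 were above background in no group and 2 were higher in newborns than in adults and than in old rats. The shares of all probes higher in newborns were 27 percent against adults and 20.6 percent against old rats. The Defa probe, which detects another neutrophil defensin, had means of 5.08 in newborns, 1.53 in adults and -3.27 in old rats, with 3 of 8 old arrays above background (fitted adult minus old 4.80 ± 0.82, SE; limma adjusted p = 4.54e-05). RatNP-3b, a defensin of the same family, had means of 4.63, 1.42 and -0.24. Both thus had their lowest mean in old rats, whereas Np4 had its lowest in adults. Members of this family are similar in sequence, and how far these probes distinguish them was not tested.

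Of the specific granule genes Camp and Ngp, only Camp separated adult from old rats. Camp, encoding the antimicrobial peptide cathelicidin, had levels of 0.15 to 3.00 in pups (median 1.11), of -0.54, -0.31, 0.83 and 0.57 in adult rats and of -1.58, -5.08, -3.37 and -5.24 in old rats. The old rats lay below all others, while 12 of the 19 pups stood above the highest adult. Because 1 of 8 old arrays was above background, the size of a difference from old rats is a fitted value. For newborn minus old it was 5.08 ± 0.49 (SE; limma adjusted p = 4.91e-09), 1.55 to 5.83 over the alternatives, and passed in each. For adult minus old it was 3.96 ± 0.62 (SE; limma adjusted p = 1.66e-05), which with normexp background correction and quantile normalization was 0.87 and did not pass (limma adjusted p = 0.015). The difference of 1.13 ± 0.49 (SE) between newborns and adults did not pass (limma adjusted p = 0.0535), though it did under the same normexp setting (0.69, limma adjusted p = 0.00995). The second Camp probe, on the opposite strand, was above background on 2 newborn arrays only.

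Ngp, encoding a cystatin-like protein of the same granules, had levels of -1.61 to 1.37 in pups (median -0.30). Adult rats had -5.01, -4.34, -2.12 and -2.78 and old rats -5.66, -4.37, -6.64 and -4.27. All pups stood above all adult and old rats. Newborns exceeded old rats at least 3.95-fold on the scale used here (limma adjusted p = 4.16e-09). The fitted newborn minus old difference ran from 0.82 to 7.8 over the alternatives and passed in each. For newborn minus adult, with 2 of 8 adult arrays above background, the fitted difference was 3.38 ± 0.48 (SE; limma adjusted p = 1.67e-06), and it was 0.68 to 4.24 over the alternatives and passed in each. Adult and old rats overlapped, with a difference of 1.67 ± 0.62 (SE; limma adjusted p = 0.0315). Adult rats 15 and 16 gave the 2 adult arrays with Ngp above background, and the same rats had the highest adult Camp.

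Because Camp and Ngp moved together from pup to pup, the 250 bases before their starts are printed with letter matches in capitals. They are RefSeq sequences of the GRCr8 build, a build other than that of the probe positions: Ngp at chr8:119272355-119272604 (plus) and Camp at chr8:118721999-118722248 (minus). Matches to TTNNGCAA, part of the letters bound by C/EBP factors, are in capitals for Ngp, and matches to AGGAAG, part of the letters bound by the ETS factor PU.1, for Camp, both strands read.
Ngp: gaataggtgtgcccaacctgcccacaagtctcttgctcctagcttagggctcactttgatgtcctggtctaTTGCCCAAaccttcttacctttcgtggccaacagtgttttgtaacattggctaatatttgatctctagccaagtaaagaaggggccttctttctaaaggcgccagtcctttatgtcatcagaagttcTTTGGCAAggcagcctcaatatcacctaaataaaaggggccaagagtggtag
Camp: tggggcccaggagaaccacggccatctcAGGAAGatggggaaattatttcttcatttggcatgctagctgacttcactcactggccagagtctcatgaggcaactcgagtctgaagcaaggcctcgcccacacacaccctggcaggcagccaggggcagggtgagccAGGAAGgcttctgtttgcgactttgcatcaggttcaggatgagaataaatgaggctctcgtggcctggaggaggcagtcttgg
Ngp held 2 matches to TTNNGCAA and 0 to AGGAAG, and Camp 0 and 2. TTNNGCAA was found before 3 of the 8 member genes in the promoter table (Lcn2, Ngp and Np4) and before 9.22 percent of 33469 genes, and AGGAAG before 5 of 8 and 29.5 percent. A match is a description of letters and not a site. Of 7 transcription factors of granulocyte formation, only Cebpe, the C/EBP factor needed for secondary granules, was higher in newborns than adults (means -0.37 and -2.34, difference 1.98 ± 0.40, SE; limma adjusted p = 0.000166). Cebpe was also higher than in old rats (2.39 ± 0.40, SE; limma adjusted p = 1.92e-05), and was above background on 19 of 19 newborn, 3 of 8 adult and 4 of 8 old arrays. Against old rats Ets1 was called higher too (0.50 ± 0.09, SE; limma adjusted p = 3.58e-05). Among all probes 27 percent were higher in newborns than adults and 20.6 percent higher than in old rats, so these counts are no result about the factors.

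Lcn2, which binds bacterial siderophores, was bright on every array. Pups had levels of 6.24 to 9.11 (median 7.02), adult rats 4.87, 5.20, 6.23 and 5.24 and old rats 7.07, 6.08, 7.43 and 6.48. All pups stood above all adults by a narrow margin, and old rats overlapped both. Newborns exceeded adults 3.07-fold (1.62 ± 0.32, SE; limma adjusted p = 0.000152) and did not differ from old rats beyond the error (0.24 ± 0.32, SE; limma adjusted p = 0.584). Adult rats were 2.61-fold below old rats (-1.38 ± 0.42, SE; limma adjusted p = 0.00946), a call at the edge of the threshold that was lost without adult rat 13 (-1.21, limma adjusted p = 0.0366) and without old rat 19 (-1.16, limma adjusted p = 0.0415), and after quantile normalization (-1.0, limma adjusted p = 0.04). Among 12 other nasal gland and secretory genes 7 were higher in newborns than adults and 0 lower, led by Scgb3a1, a secretoglobin of airway secretory cells (3.91 ± 0.22, SE), Muc5ac, a gel-forming mucin (3.46 ± 1.06, SE), and Tff3, a trefoil peptide of mucous cells (3.13 ± 0.36, SE). Against old rats 2 were higher and 2 lower. The shares of all probes were 27 percent higher and 19.9 percent lower against adults, and 20.6 and 22.8 percent against old rats. The part of gland cells in the Lcn2 values was not tested.

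S100a8 and S100a9, the calprotectin pair, were higher in every pup than in any adult and varied most among old rats. S100a9 levels were 3.48 to 6.97 in pups (median 4.41), 0.84, 1.44, 2.30 and 1.83 in adult rats, and 5.37, 2.04, 3.86 and 1.85 in old rats 17, 18, 19 and 20. S100a8 levels were 2.80 to 6.06 in pups (median 3.68), 0.21, 0.93, 2.13 and 1.69 in adult rats and 4.16, 0.75, 2.54 and 0.46 in the same old rats. Old rats 17 and 19 thus reached into the range of the pups for S100a9, and rats 18 and 20 into that of the adults, for both genes. The SD over old rats was 1.66 for S100a9 and 1.72 for S100a8, against 0.62 and 0.85 over adult rats. Newborns exceeded adults 7.56-fold for S100a9 (2.92 ± 0.50, SE; limma adjusted p = 2.46e-05) and 5.95-fold for S100a8 (2.57 ± 0.52, SE; limma adjusted p = 0.000161). With litter means as the newborn replicates the S100a8 difference from adults did not pass (limma adjusted p = 0.0123). Against old rats S100a8 passed (1.84 ± 0.52, SE; limma adjusted p = 0.0044) and S100a9 did not (1.24 ± 0.50, SE; limma adjusted p = 0.0415).

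The comparison of pups with old rats rested on single old animals for these 2 genes. Without rat 17 the S100a9 difference was 1.94 and passed (limma adjusted p = 0.00199). Without rat 18 the S100a8 difference was 1.43 and without rat 20 it was 1.33, and neither passed (limma adjusted p = 0.0434 and 0.0498). With litter means as newborn replicates S100a8 did not pass against old rats (limma adjusted p = 0.061). With slide or scan day as a random block it was 1.87 and 1.91 and also did not pass (limma adjusted p = 0.0137 and 0.016). The 2 opposite-strand probes of S100a8 were dimmer. One was above background on 15 of 19 newborn, 1 of 8 adult and 3 of 8 old arrays and was higher in newborns than adults (2.38 ± 0.67, SE; limma adjusted p = 0.00402), and the other, on 12, 3 and 1 arrays, was not (1.06 ± 0.70, SE; limma adjusted p = 0.213) but was higher in newborns than old rats (2.76 ± 0.70, SE; limma adjusted p = 0.00177).

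**Figure D3:**
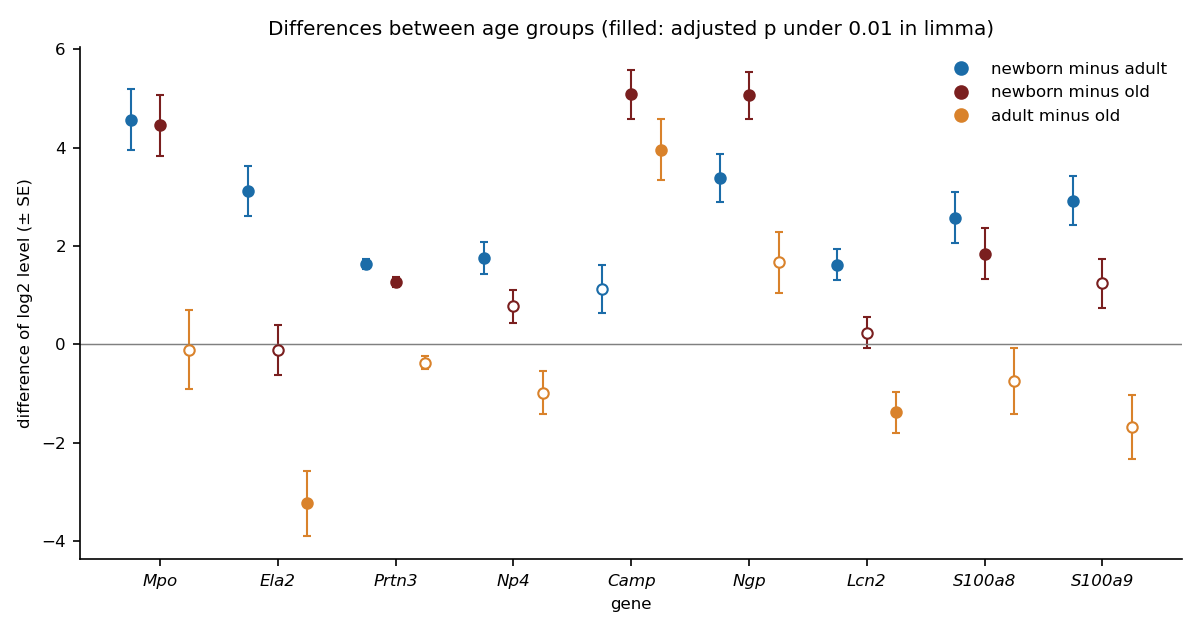
Difference of log2 level between age groups (y axis, with SE) for the 9 detected genes (x axis). Filled points passed an adjusted p of 0.01 in limma. The fitted newborn minus old values of Mpo, Camp and Ngp are the highest plotted for that comparison, but 0, 1 and 0 of 8 old arrays were above background for them, and those of Np4, Lcn2 and Ela2 are at most 0.77.

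Other granule and cytosol genes of neutrophils moved in both directions, as probes in general did. Over all probes 27 percent were higher in newborns than adults and 19.9 percent lower. The lists are short, and some of their counts lie near these shares. Of 6 other genes of the gelatinase granule and cytosol list, 4 were higher in newborns than adults and 0 lower. Stfa2, a stefin that inhibits cysteine proteases, was above background on 19 of 19 newborn, 0 of 8 adult and 0 of 8 old arrays. Its newborn mean exceeded adults at least 122-fold (limma adjusted p = 5.88e-09) and old rats at least 106-fold (limma adjusted p = 1.09e-07). Among pups Stfa2 was highest in 9, 30, 11 and 32 (6.41 to 10.28, against 2.03 to 5.02 in the other 15), the pups in which the list of squamous epithelium genes was also highest (5.07 to 7.24, against at most 0.68), and pup 30 had the lowest S100a9. The part of squamous epithelium in the Stfa2 values was not tested. Mmp9, the gelatinase B of neutrophils that is also abundant in osteoclasts, had means of 6.19, 4.32 and 1.92 in newborn, adult and old rats, with all 3 differences passing. Arg1, arginase, was 1.61 ± 0.21 (SE) higher in newborns than adults. Of 7 other specific granule genes, Hp, haptoglobin (2.48 ± 0.33, SE), and Pglyrp1, a peptidoglycan-binding protein (1.0 ± 0.28, SE), were higher in newborns than adults and Olfm4, olfactomedin, was lower (-1.80 ± 0.43, SE). Of 5 NADPH oxidase genes, 2 were higher in newborns than adults, the GTPase Rac2 (0.92 ± 0.18, SE) and the membrane subunit Cyba (0.83 ± 0.12, SE), and Cybb, its catalytic partner, was lower (-1.56 ± 0.23, SE).

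Surface receptors of the mature neutrophil were in part bright and in part undetected. Of 12, Il1r2, a decoy receptor of interleukin 1, Itgb2, the shared beta chain of leukocyte integrins, and C5ar1, the receptor of a complement fragment, were above background on all 35 arrays, and Itgam, an alpha chain that pairs with Itgb2, on 18 of 19 newborn and all adult and old arrays. Between newborns and adults the fit called only the chemokine receptor Cxcr2, which was above background on 2 of 19 newborn and 0 of 8 adult arrays, so no size is given. Csf3r, the receptor of the granulocyte colony-stimulating factor, was above background on 5 of 19, 3 of 8 and 5 of 8 arrays and did not differ in a way that passed. The mean level of the 12 receptors was -3.42 to 0.24 in pups, -3.66 to -2.37 in adults and -2.18 to -0.54 in old rats, and for adult against old the fit called 3 of 12, all lower in adults. Among these 3, Cxcr1 was above background on 0 of 8 adult and 0 of 8 old arrays and Cxcr2 on 0 and 3, while Itgam, with means of -0.39 and 0.64, differed by -1.03 ± 0.30 (SE; limma adjusted p = 0.00653). Of the receptors, Itgam was the only one called in this comparison that was above background on all adult and old arrays. Among all probes 20.6 percent were lower in adults than in old rats.

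Genes of other cell types moved along with age. Of 14 bone and osteoclast genes, 4 differed between newborns and adults (2 higher, 2 lower), whereas 13 were higher and 1 lower in newborns than in old rats and 12 higher and 1 lower in adults than in old rats. The shares of all probes were 27 percent higher and 19.9 percent lower for newborn against adult. They were 20.6 and 22.8 percent for newborn against old, and 11.8 and 20.6 percent for adult against old. Ibsp, encoding bone sialoprotein, had means of 8.09, 8.32 and 4.25 in newborn, adult and old rats. The mean level of the list was 2.65 to 4.31 in pups, 3.06 to 3.94 in adults and 0.56 to 1.33 in old rats, and all its genes were above background on some newborn and some adult array, with 3 on no old array. Acp5, the tartrate-resistant phosphatase of osteoclasts, was 1.60 ± 0.17 (SE) higher in newborns than adults, and Alpl and Dmp1, genes of mineralising cells, were lower (-1.31 and -1.20). Between adult and old rats Camp and Defa were higher in adults, Ela2 and Lcn2 were lower, and the other 7 members did not pass. Between newborns and adults 8 of the 10 members were higher in newborns. The part of bone or its marrow in these values was not tested.

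Of 10 red cell genes 8 were higher and 1 lower in newborns than in adults, and likewise against old rats. Eraf, which binds alpha globin, was 5.09 ± 0.27 (SE) higher in newborns than adults, Slc4a1, the red cell anion exchanger, 4.2 ± 0.24 (SE), and Epb4.2, a membrane skeleton protein, at least 16-fold higher. The mean level of the list was 2.86 to 5.00 in pups, 0.89 to 1.32 in adults and 1.59 to 2.40 in old rats, with no overlap between pups and the other groups. Of 10 macrophage genes 3 were higher in newborns than adults, and 3 were higher and 5 lower in newborns than in old rats. The first count is near the share of all probes, 27 percent. Against old rats 20.6 percent of all probes were higher in newborns and 22.8 percent lower. Cd68, a lysosomal marker, was 1.35 ± 0.15 (SE) higher in newborns than adults, the haptoglobin scavenger receptor Cd163 at least 1.97-fold, and the mannose receptor Mrc1 0.83 ± 0.16 (SE). The part of these cells in the values of the 10 genes was not tested.

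The L1 pups and the old rats were scanned on the same day, which takes scan day out of the comparison. Of the 10 genes 5 were higher in L1 (Mpo, Prtn3, Camp, Ngp and Np4) and 0 lower, where 12 percent of all probes were higher and 17.1 percent lower. Mpo was at least 7.62-fold higher in L1 (limma adjusted p = 0.00154) and Ngp at least 4.92-fold (limma adjusted p = 0.000418). Camp was higher by 4.84 ± 0.82 (SE; limma adjusted p = 0.00281), Prtn3 by 1.16 ± 0.12 (SE; limma adjusted p = 0.000326) and Np4 by 0.80 ± 0.17 (SE; limma adjusted p = 0.00889). S100a8 (2.12 ± 0.81, SE; limma adjusted p = 0.075) and S100a9 (1.5 ± 0.79, SE; limma adjusted p = 0.176) did not pass with 4 rats a group. Without L1 pup 9 or 11 the count fell to 3 of 10, with Camp (limma adjusted p = 0.0102 and 0.0104) and Np4 (limma adjusted p = 0.0253 and 0.0272) no longer passing, and without any single rat but L1 pup 12 Np4 did not pass.

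Litters were compared with each other. The 4 L1 pups shared no scan day with the other litters, and litter was partly confounded with slide. Differences among litters therefore cannot be fully told apart from those of slide and scan day. Among the 4 litters 0 of the 10 genes passed the limma F test (1 at an unadjusted p under 0.05, Np4, adjusted p = 0.0742), whereas 23.8 percent of all probes did. This held in each alternative run for that test. For Np4 the mean over pups was 3.05 ± 0.32 (SD, n = 4) in L1 and 3.50 ± 0.67 (SD, n = 5) in L2, and it was 2.32 ± 0.45 (SD, n = 5) in L3 and 3.23 ± 1.12 (SD, n = 5) in L4. L3 also had the lowest litter mean of S100a8, S100a9, Mpo, Camp and Ngp, none of which passed. The pooled SD among pups of a litter was 1.07 for Mpo, 0.80 for S100a9, 0.78 for S100a8, 0.72 for Ngp and 0.71 for Camp.

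Pups of a litter differed widely, and most of the genes ranked them alike apart from 1 pup. After subtracting each litter's mean, S100a8 and S100a9 ran together over the 19 pups (r = 0.99), as did Mpo with Ngp (0.93), Camp with Ngp (0.94) and Camp with Np4 (0.89). S100a9 with Mpo gave 0.44 and S100a9 with Ngp 0.51, but these low values rested on 1 pup: without pup 24 of L2 they were 0.83 and 0.94 over 18 pups. Lcn2 with S100a9 gave 0.64 over all pups and 0.21 without pup 24. Lcn2 with Mpo was near 0 either way (-0.11 and 0.02). Prtn3 gave 0.14 with Mpo and -0.19 with S100a9, and 0.08 and 0.13 without pup 24. These correlations describe pups of 4 litters on single arrays, and the values of a pup share its array, its median and its dissection.

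Pups 24 and 35 had the highest levels of different genes. Pup 24 of L2 had the highest level of S100a8 (6.06), S100a9 (6.97) and Lcn2 (9.11) of all 19 pups, while its Mpo (-0.41) ranked 14 and its Ngp (-0.34) ranked 11. Pup 35 of L4 had the highest Mpo (2.44), Ngp (1.37), Camp (3.00), Np4 (4.84) and Ela2 (-0.50), the second rank for S100a8 and S100a9, and rank 14 for Lcn2. In pup 24 all 9 genes of a list of neutrophil-recruiting cytokines were above background and their mean level was 3.25. In the other 18 pups 4 or 5 of the 9 were above background, and the highest mean level was -0.09, in pup 21 of the same litter. Pup 24 also had the highest mean of the 12 neutrophil surface receptors (0.24, next -1.92), with 10 of them above background, of the macrophage list (4.49, next 4.08) and of the nasal gland and secretory list (3.96, next 3.62). Granule lists without the members were high in it too. It ranked first for the specific granule (2.63, next 1.58), NADPH oxidase (2.68, next 2.16) and granulopoiesis factor lists (2.58, next 2.38). For the azurophil list it ranked second (4.14), after pup 35 (4.25). It ranked 3 for the gelatinase granule and cytosol list (4.58) and 5 for the alpha-defensin list (-0.27, against 0.96 in pup 35). Its squamous epithelium list ranked 7 (mean level 0.49), and in pups 9, 30, 11 and 32, where that list was highest (5.07 to 7.24), S100a9 ranked 8, 19, 4 and 9. Across age groups the cytokine list held 1 gene of 9 that passed, Cxcl12, which retains neutrophils in the marrow (1.79 ± 0.14 higher in newborns than adults, SE). Larger shares of all probes passed: 27 percent were higher and 19.9 percent lower in newborns than adults. Against old rats the shares were 20.6 and 22.8 percent. Pup 24 was scanned with pups 26, 28 and 34 on a day of their own. Their S100a9 mean was 4.86 ± 1.51 (SD, n = 4), against 4.28 ± 0.73 (SD, n = 11) for the pups of the same litters scanned on the other day.

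**Figure D4:**
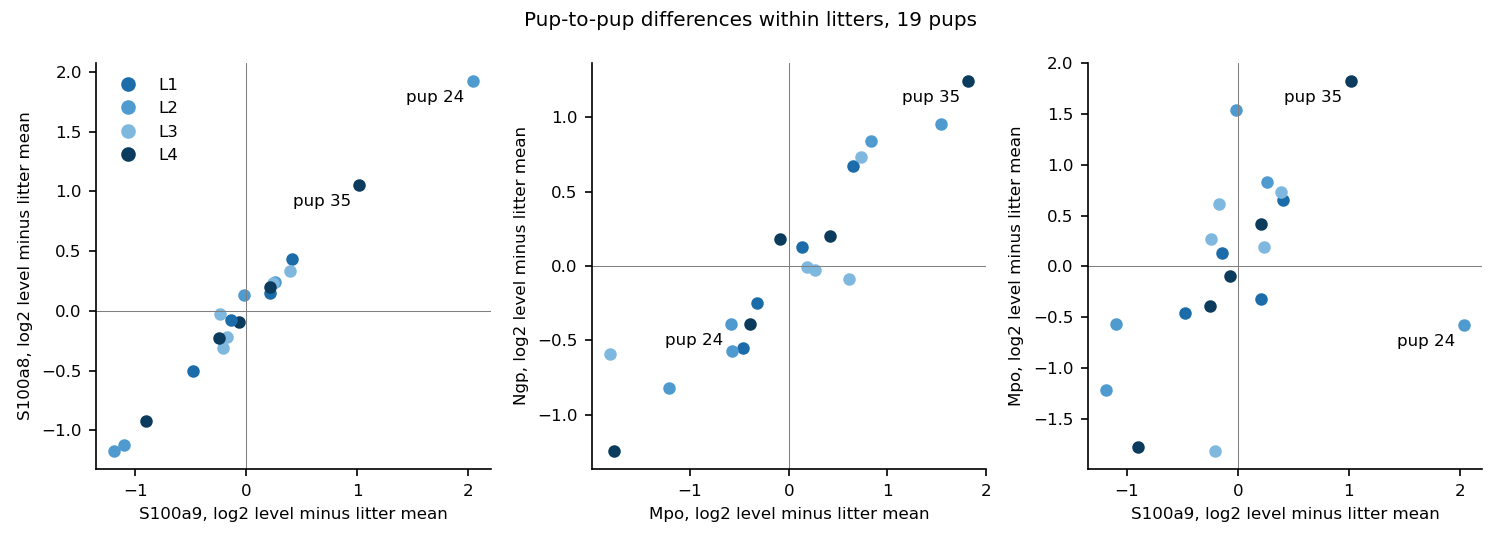
Each of 19 pups by its log2 level minus its litter mean: S100a8 against S100a9, Ngp against Mpo, and Mpo against S100a9. The first pair lies on a line (r = 0.99), the second nearly so (0.93), and in the third pup 24 is high on S100a9 and low on Mpo (0.44 over all pups, 0.83 without pup 24).

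The genes most like S100a9 and Mpo over the pups were sought among 25233 probes above background on at least 15 newborn arrays. For S100a9 they were Napsa, the aspartic protease napsin (r = 0.97), Retn, encoding resistin (0.96), Ncf1, a cytosolic subunit of the NADPH oxidase (0.94), Lilrb2, an inhibitory receptor of myeloid cells named Pirb on the array (0.94), and Nalp12, a NOD-like receptor (0.94). For Mpo they were Ctsg (0.97), Ms4a3, a membrane protein of marrow cells (0.95), Defa5, the gene of the Defa probe (0.89), Tpsd1, a tryptase (0.87), and Ldhc, a lactate dehydrogenase (0.86). All 5 genes nearest to S100a9 were above background on 8 of 8 old arrays. Of the 5 nearest to Mpo, 3 were above background on 0 of 8 old arrays, and Ctsg and Defa5 on 1 and 3. Without pup 24 the values for these genes were 0.87 to 0.97 for S100a9 and 0.88 to 0.97 for Mpo. These measures describe likeness over 19 pups and carry no test.

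Among adult rats the widest gap between nostrils A and B of a rat exceeded the whole range of the rat means for Np4 (1.66 against 0.45), Camp (2.26 against 1.37), Prtn3 (0.26 against 0.11) and, mostly below background, Mpo (5.48 against 3.13) and Ngp (3.26 against 2.89), and nearly equalled it for S100a9 (1.44 against 1.46). For S100a9 the mean gap between the nostrils of a rat was 0.73 in adult and 0.80 in old rats, and the widest gap among old rats was 1.32 in rat 19. Both nostrils of old rats 17 (4.81 and 5.92) and 19 (4.52 and 3.20) were nevertheless above both of rats 18 (1.67 and 2.41) and 20 (1.86 and 1.83). In adult rat 15 nostril A exceeded nostril B for S100a8 (2.98 and 1.28), S100a9 (2.88 and 1.72), Camp (1.96 and -0.30), Ngp (-0.89 and -3.34) and Mpo (-1.63 and -4.36), and the latter 2 were above background on side A alone. Np4 showed the same side difference in rat 15 (2.33 and 0.67), while Lcn2 (6.18 and 6.27) and Prtn3 (1.62 and 1.64) did not. The mean gap for Prtn3 was 0.12 in both groups.

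**Figure D5:**
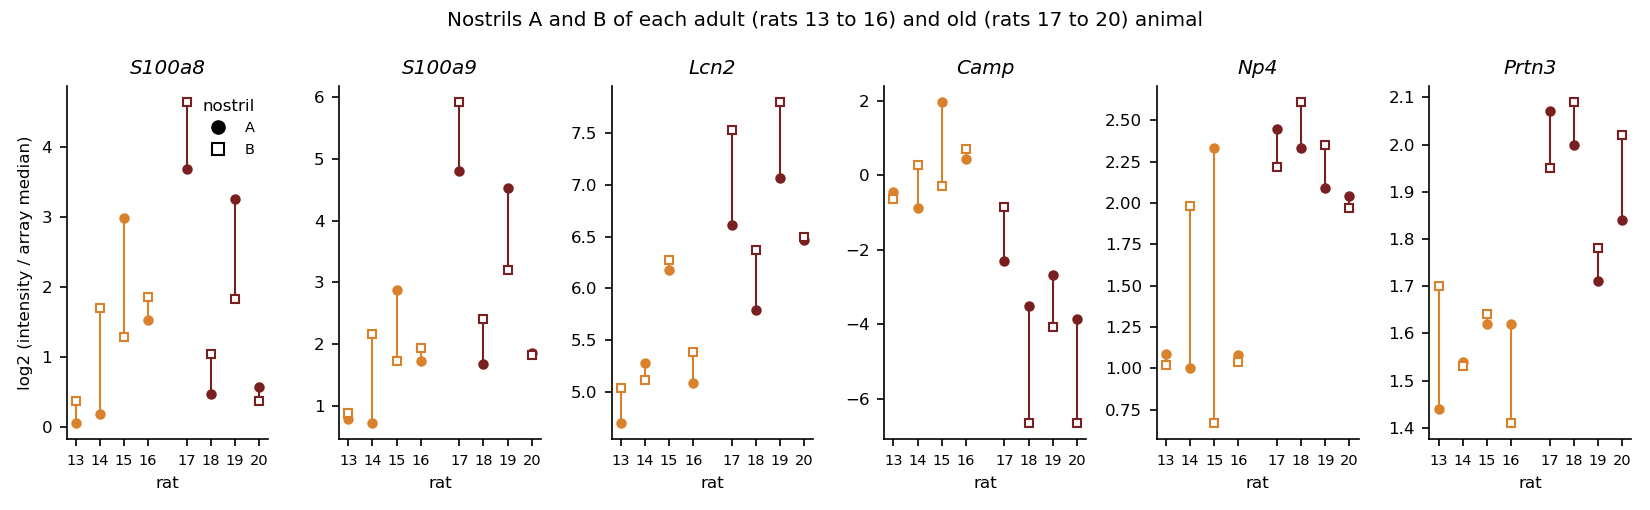
Level on the arrays of nostril A (circle) and B (square) of each adult rat (13 to 16) and old rat (17 to 20), y axis log2 of intensity over the array median. S100a8 and S100a9 were high on both sides of old rats 17 and 19, and rat 15 had more Camp and Np4 on side A than on side B.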

How the data were processed

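RNA of 27 rats was hybridised to 35 Agilent whole rat genome arrays with 1 dye. The deposited scanner files hold the intensity of each spot, which the authors' Agilent Feature Extraction software (version 9.5.1.1 for adult arrays, 9.5.3.1 for the others, per the file headers) had corrected for local background and spatial trend, with probe positions in build rn3. A deposited matrix, used as an alternative, holds the ratio of each spot to the array's median and then to the probe's median over arrays, with negative values set to 0.01 by the authors.

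Spots of a probe were averaged and scaled to the median intensity of their array, the result was floored at 0.01 and turned into log2, and adult and old rats were given the mean of their nostrils. A spot counted as above background when its flags called it significantly positive, well above background, free of saturation and uniform, and a gene was expressed in a group with 3 such arrays of a litter or 6 of 8 adult or old arrays. Control spots and the 4189 values flagged as outliers, at 732 probes, were left out. limma 3.58.1 in R 4.3.3 was fitted over all probes with 6 groups (4 litters, adult, old) and an intensity trend, newborn being the mean of the 4 litters. Calls were two-sided at a Benjamini-Hochberg adjusted p under 0.01, the threshold of the study's methods, and litters were compared by limma's F test. L1 and old rats were fitted alone. Python 3.11.15 with pandas 2.3.3 and numpy 2.4.6 did the rest. The fit was tested on simulated data.

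A gene with several probes was represented by its brightest. The members and lists were chosen with earlier results of these data known. All 10 genes are named, and from each list up to 3 called genes with the largest newborn against adult difference. Ctsg, Srgn, Csf3r, Il1r2, Itgb2, C5ar1, Itgam, Cxcr1 and Ibsp were named after their values were seen. For S100a9 and Mpo the 5 most alike genes were named, by Pearson r over pups after subtraction of litter means, from probes above background on 15 or more newborn arrays. Alternatives were other scalings (75th percentile, quantile, normexp with offset 50, the authors' matrix), floors, filters, replicate units, slide or scan day as a random block, the methods' t-test and leaving out each rat.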

Additional observations from a re-analysis of the deposited data

Results flagged for a closer look

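In 51 groups of 4 or 5 rats the most extreme rat was set against the others, and 3 of them held a rat further from its nearest neighbour than a single group would show in about 1 of 20 cases, so chance alone flags about 1 in 20 groups. Mpo was lowest in L3 pup 28, at -2.65 with the next pup at -0.65. Lcn2 was highest in L2 pup 24, at 9.11 with the next at 7.3. Lcn2 was lowest in L3 pup 30, at 6.33 with the next at 7.15. Pup 28 also had the lowest Ngp (-1.61) and S100a8 (2.80) of the 19 pups, and pup 24 the highest S100a8 and S100a9. Pups 24 and 28 were scanned on the same day with pups 26 and 34, and on that day the mean Lcn2 of the 4 pups was 7.89 ± 0.86 (SD, n = 4), against 6.89 ± 0.33 (SD, n = 11) on the other day of L2 to L4. The part of scan day in these values was not tested.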

How the results depend on the processing

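Of 10 genes, 8 were called for newborn against adult and 5 for newborn against old, and these counts became 5 and 2 with only probes expressed in all 6 groups and again 5 and 2 with the methods' t-test, since 5 genes remained to be tested. For adult against old the count of 3 became 1 with 75th percentile scaling, 1 with a floor of 0.1, 1 with only probes expressed in all 6 groups, 0 with normexp and quantile normalization (limma adjusted p = 0.015 for Camp and 0.0563 for Ela2) and 5 with litter means as newborn replicates. Without 1 rat the count was 8 for newborn against adult, 4 to 6 for newborn against old, 2 to 3 for adult against old and 3 to 5 for L1 against old, the lowest without L1 pup 9 or 11.

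The 3 differences that changed sign were smaller than their SE. Ela2 in newborn against old was 0.04 with normexp and ran from -0.30 to 0.01 without 1 rat. Mpo in adult against old was 0.32 with the 75th percentile, 0.15 with quantile normalization, 0.09 with normexp and 0.35 with a floor of 0.1, and ran from -0.81 to 0.47 without 1 rat. Lcn2 in L1 against old ran from -0.45 to 0.00. Among the values of single genes under alternatives, 1120 kept their direction and side of the threshold, 50 lost the call, 11 gained one and 10 changed sign. The Lcn2 call for adult against old was lost in 29 of 42 alternatives. The cause was not tested.

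Dim genes limit the detail: Ela2, Mpo and Ngp lay below background on most or all adult arrays, and Mpo, Ngp and Camp on most or all old arrays, so the size of their differences moved with the scale. Leaving out pups from the correlations was chosen after seeing the data. No paired analysis was possible because rat numbers are not shared between groups.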

Other observations

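Lists of other cells were read in the same fit, in which 27 percent of all probes were higher in newborns than adults and 19.9 percent lower. Of 12 eosinophil and mast cell genes, 3 were higher and 6 lower in newborns than in adults. Cma1, the mast cell chymase, was 3.58 ± 0.32 (SE) higher (limma adjusted p = 1.12e-09), whereas Ms4a2, the beta chain of the IgE receptor, was lower by the fit, with 1 of 19 newborn arrays above background (-3.58 ± 0.56, SE), as was Fcer1a, its alpha chain (-2.89 ± 0.80, SE). Of 12 B, plasma and T cell genes, 2 were higher and 3 lower. Vpreb1, part of the surrogate light chain of B cell precursors, was at least 3.4-fold higher in newborns (limma adjusted p = 7.83e-07), above background on 17 of 19 newborn and 0 of 8 adult arrays. The T cell gene Cd3e and the plasma cell gene Igj were called lower, with 2 of 8 adult arrays above background for each and 0 of 19 newborn arrays, so no size is given.

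Of 11 genes of mature olfactory sensory neurons, 0 were higher and 10 lower in newborns than in adults, led by Cngb1, a channel subunit of olfactory transduction (-3.25 ± 0.17, SE), Ric8b, which acts on the olfactory G protein (-2.84 ± 0.18, SE), and Adcy3, the adenylyl cyclase of the same pathway (-2.67 ± 0.13, SE). Of 8 sustentacular cell genes, 1 was higher and 5 lower, led by Cyp1a2, a cytochrome of drug metabolism (-3.72 ± 0.23, SE), Ugt2a1, a conjugating enzyme (-3.12 ± 0.22, SE), and Cyp2g1, an olfactory cytochrome (-1.96 ± 0.23, SE). Of 9 squamous epithelium genes, only the keratin Krt15 passed (1.89 ± 0.30, SE).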
